A study of Mus musculus with 2 samples.

Results

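Single-cell RNA sequencing of newborn mouse epidermis gave 343 differentiated spinous keratinocytes (KCs) among the 19488 cells that passed the cell filter. They were chosen by the share of a cell's unique molecular identifiers (UMIs, the tags by which each captured RNA molecule is counted once) that lay on 5 genes. A spinous cell had at least 4% of its UMIs on the suprabasal keratins Krt1 and Krt10, under 0.8% on the basal keratins Krt14 and Krt5, and under 0.5% on loricrin (Lor), an envelope protein of the granular layer. Barcodes with 900 to 7700 detected genes and under 10% of UMIs on mitochondrial genes counted as cells. All cells came from the epidermis of 2 male C57BL/6J mice at postnatal day 0, called KO mouse 1 and KO mouse 2, with 1 library per mouse. Both carried the Chrm3 KO, a germline knockout of the M3 muscarinic acetylcholine receptor that was not limited to KCs. Wild-type libraries were not analysed here, so each comparison below is between cell groups of the same 2 KO mice and none measures the knockout itself. In the spinous cells Chrm3 itself had 3 UMIs in mouse 1 and 1 UMI in mouse 2. Which part of the gene is deleted is not given in the sources used here, so these UMIs check no label.

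The spinous KCs were compared with 3 other groups of the same libraries. Transitional KCs met the same Krt1 and Krt10 limit but had at least 0.8% of UMIs on Krt14 and Krt5 (22 cells). Granular KCs had at least 0.5% of UMIs on Lor (73 cells). Basal-type KCs had under 1% on Krt1 and Krt10 and at least 0.8% on Krt14 and Krt5 (7505 cells), and they included KCs with hair follicle genes. Because the groups were cut by the shares of these genes, genes that go with them differ between groups in part by construction.

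The interfollicular epidermis renews from a basal layer that is fixed to the basement membrane by hemidesmosomes. KCs that leave this layer stop dividing, exchange Krt5 and Krt14 filaments for Krt1 and Krt10, and tie these filaments to desmosomes, the cell-cell junctions that look like spines in fixed tissue and give the spinous layer its name. Above them, granular KCs make filaggrin, loricrin and the lipids of the water barrier before they cornify. Notch receptors, calcium and transcription factors such as Klf4 are known regulators of the step from basal to spinous.

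In mouse 1, 165 of 7607 cells were spinous (2.17%, with an exact 95% binomial interval of 1.85 to 2.52). In mouse 2, 178 of 11881 were (1.5%, interval 1.29 to 1.73), and the mean was 1.83% ± 0.474 (SD, n = 2). The intervals of the 2 mice do not overlap, and they cover counting error only. The cells were deeply sampled: the median was 21622 UMIs and 4061 genes per cell in mouse 1 and 20982 UMIs and 4018 genes in mouse 2, against medians of 9836 and 10131 UMIs in basal-type KCs. Scrublet, which scores barcodes that may hold 2 cells, marked 1 spinous cell in each mouse. The libraries shared 127 cell barcodes, none of which was spinous in both.

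Within the chosen cells Krt1 and Krt10 together took a median of 5.93% of UMIs in mouse 1 (4.04 to 15) and 6.28% in mouse 2 (4 to 12.4). Krt14 and Krt5 together had a median of 0.0172% and 0.0424%, and Lor of 0.00532% and 0.00643%. These are the values by which the cells were chosen. At each limit, among cells that met the other limits, the nearest cells inside and outside lay at 4.001% and 3.978% for Krt1 and Krt10, at 0.7987% and 0.8009% for Krt14 and Krt5, and at 0.4695% and 0.8189% for Lor. Among the same cells, those around the first limit were dense, with 30 spinous cells and 50 excluded cells between 3.6% and 4.4%, whereas 1 spinous cell and no excluded cell lay between 0.45% and 0.55% Lor. The ratio of Krt1 to Krt10 was 0.878 in the summed spinous UMIs of mouse 1 and 1.03 in mouse 2. It was 1.33 and 1.46 in the cells with 1 to 4% Krt1 and Krt10 that still had at least 0.8% Krt14 and Krt5. It was 1.32 and 1.02 in transitional cells, 1.01 and 1.1 in granular and 0.818 and 0.852 in basal-type cells, so the order of the groups differed between the mice.

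**Figure D1:**
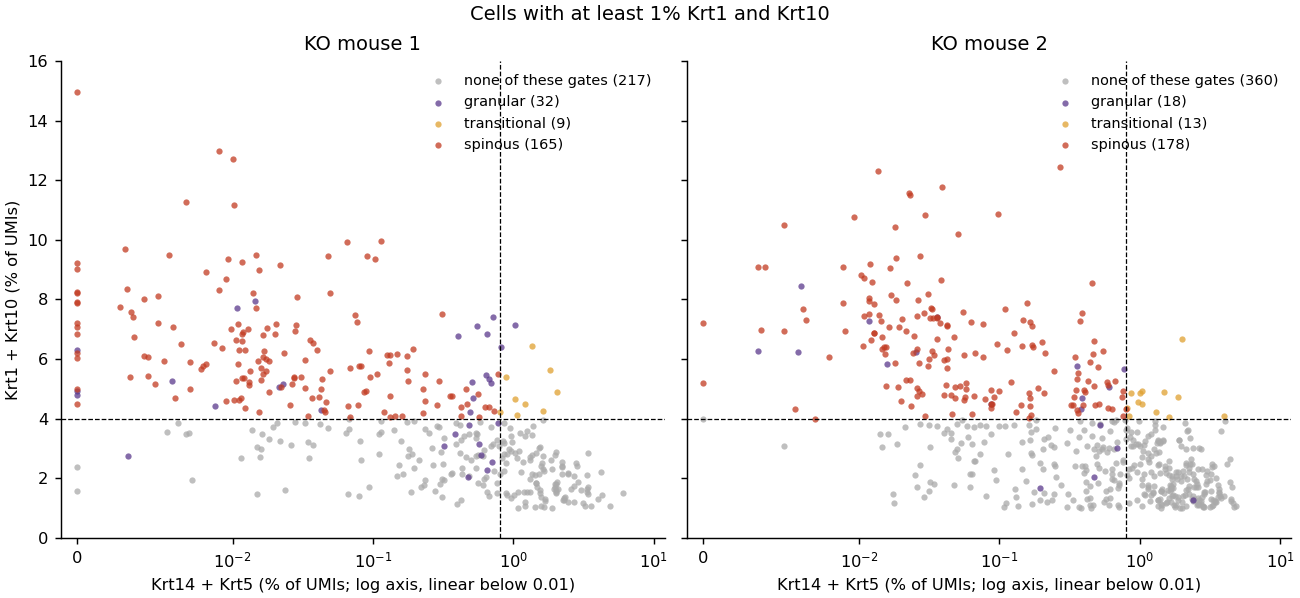
Each point is 1 of the 992 cells with at least 1% of UMIs on Krt1 and Krt10 (423 in KO mouse 1, 569 in KO mouse 2); the vertical axis is the share on Krt1 and Krt10, the horizontal axis that on Krt14 and Krt5 (log scale, linear below 0.01), and dashed lines mark the limits of 4% and 0.8%. The 343 spinous cells fill the upper left of both panels, and cells are continuous across the 4% line.

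The 10% mitochondrial limit took away many barcodes with spinous keratins. Of 995 barcodes inside the keratin and Lor limits, 652 (65.5%, interval 62.5 to 68.5) were removed by the cell filter, 631 of them for mitochondrial UMIs. The share removed was 56.2% in mouse 1 (212 of 377) and 71.2% in mouse 2 (440 of 618). For basal-type KCs it was 12.5% and 12.2%, and for granular KCs 84.2% and 85.7%. The share of spinous barcodes lost therefore lay between those of the groups below and above. The removed spinous barcodes had a median of 34.9% mitochondrial UMIs and 5526 UMIs in all. With no mitochondrial limit, the spinous share was 3.9% in mouse 1 (360 of 9222) and 4.15% in mouse 2 (579 of 13954), and the order of the mice was turned.

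**Figure D2:**
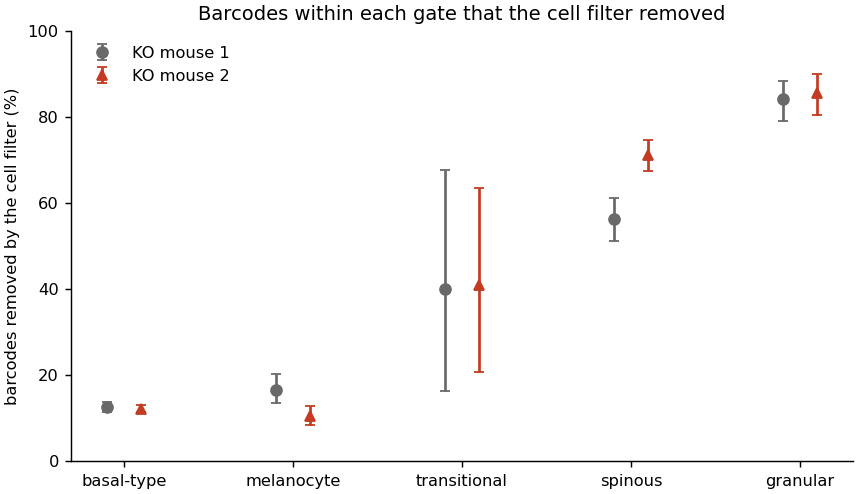
Share of the barcodes inside the limits of each of 5 groups (basal-type, melanocyte, transitional, spinous and granular) that the cell filter removed (percent), for KO mouse 1 (circles) and KO mouse 2 (triangles) with exact 95% binomial intervals. The spinous gate lost 56.2% and 71.2% of its barcodes, more than the basal-type gate (12.5% and 12.2%) and less than the granular gate (84.2% and 85.7%).

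The other 3 marker genes of the label were not used by the limits, and all 3 were abundant in the spinous cells. Klf4 encodes a zinc finger transcription factor of differentiating epithelia and lies on chr4:55527143-55532466 of GRCm38 (minus strand). Calm4, on chr13:3837757-3838673 (plus strand), encodes a calmodulin-like protein of the epidermis, and Sbsn, on chr7:30751471-30756134 (plus strand), encodes suprabasin, a secreted protein of suprabasal KCs. Krt10 lies on chr11:99385254-99389364 and Krt1 on chr15:101845426-101850794, both on the minus strand. After every cell was thinned to 3000 UMIs, 89% of spinous cells in mouse 1 and 89.1% in mouse 2 held a Klf4 UMI. Unthinned, the shares were 100% and 98.9%. Melanocytes (at least 0.2% of UMIs on Pmel and Dct) served as a background of free RNA or mixed barcodes, which were not told apart. They held a Klf4 UMI in 6.91% and 10.2% of thinned cells (median depth 8752 and 9708 UMIs before thinning, against 21622 and 20982 in spinous cells). Scrublet marked 7.67% and 9.7% of the melanocytes as possible doublets. Krt1 and Krt10 were fixed by the limits. The 3 markers that were not, Klf4, Calm4 and Sbsn, were present in the spinous cells, while Calm4 and Sbsn reached still higher levels in granular cells.

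The 250 bases before the start of a gene are shown for Krt10, for 3 other genes that were high in spinous KCs and for Serpinb12, the first gene by the naming rule against basal-type KCs. The sequences are from RefSeq (GRCm38.p6), read 5′ to 3′ on the strand of the gene. Capitals mark 3 motifs, each searched on both strands. TGANTCA is wider than the AP-1 motif, since its middle base (N) may be any. CACCC is a Klf motif, or GGGTG on the other strand. The last is TATAAA, or TTTATA on the other strand.
Krt10, chr11:99389365-99389614, minus strand: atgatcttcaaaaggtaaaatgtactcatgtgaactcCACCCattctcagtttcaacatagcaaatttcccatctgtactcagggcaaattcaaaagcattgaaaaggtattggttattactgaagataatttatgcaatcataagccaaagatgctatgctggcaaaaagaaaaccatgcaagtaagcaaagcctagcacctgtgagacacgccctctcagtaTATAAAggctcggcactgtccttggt
Sbsn, chr7:30751221-30751470, plus strand: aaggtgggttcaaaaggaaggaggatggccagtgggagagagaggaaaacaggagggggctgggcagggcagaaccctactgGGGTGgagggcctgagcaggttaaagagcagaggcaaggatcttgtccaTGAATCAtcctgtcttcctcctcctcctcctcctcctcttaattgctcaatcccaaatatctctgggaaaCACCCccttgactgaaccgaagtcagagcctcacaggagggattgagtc
Calm4, chr13:3837507-3837756, plus strand: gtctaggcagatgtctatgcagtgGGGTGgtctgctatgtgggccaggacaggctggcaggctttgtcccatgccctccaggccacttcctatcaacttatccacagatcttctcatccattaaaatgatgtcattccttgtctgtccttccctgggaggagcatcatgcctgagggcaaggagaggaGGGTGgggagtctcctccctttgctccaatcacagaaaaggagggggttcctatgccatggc
Tgm3, chr2:130012090-130012339, plus strand: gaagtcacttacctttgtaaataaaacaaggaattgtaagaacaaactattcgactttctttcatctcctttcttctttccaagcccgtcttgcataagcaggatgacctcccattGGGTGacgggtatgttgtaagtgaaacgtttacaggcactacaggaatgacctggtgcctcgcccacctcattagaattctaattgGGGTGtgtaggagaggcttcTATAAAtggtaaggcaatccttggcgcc
Serpinb12, chr1:106934199-106934448, plus strand: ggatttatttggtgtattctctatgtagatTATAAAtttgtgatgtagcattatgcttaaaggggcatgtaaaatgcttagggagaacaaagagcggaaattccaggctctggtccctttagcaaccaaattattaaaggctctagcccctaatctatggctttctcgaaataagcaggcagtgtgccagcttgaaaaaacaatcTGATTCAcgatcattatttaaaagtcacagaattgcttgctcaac
Krt10 and Tgm3 have TATAAA 26 and 28 bases before the start, whereas Sbsn and Serpinb12 have TGANTCA 119 and 45 bases before it. Another window of Serpinb12, chr1:106938707-106938956, holds no TGANTCA, and has CACCC 11 and TATAAA 201 bases before its start. The matching window of Klf4 holds none of these motifs. Of 35 genes looked up (the markers and the genes that the naming rule put highest in spinous), 29 matched the table, with 32 windows. Krt1, Spink5, Mmp2, Parp10, Gpt and Tdh did not. TATAAA was in 13 of the 32 windows (40.6%) and in 12.4% of all 32851 promoter windows of that length. TGANTCA was in 5 (15.6%) and in 6.75% of all, CACCC in 22 (68.8%) and in 52% of all. In the 5 windows with TGANTCA the middle base was A or T. The Grhl motif AACCGGTT and the Rbpj motif GTGGGAA were in none of the 32, and in 0.116% and 5.42% of all. A match is a description of letters, and its use in these cells was not tested.

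For the comparisons, UMIs were summed per mouse and group, and the 8 sums were fitted together in edgeR (quasi-likelihood test), with p-values adjusted after Benjamini and Hochberg over 10282 genes. The 5 genes of the limits were taken out first. A gene was called when its adjusted p was under 0.05 and its change at least 2-fold. Levels in the comparisons are normalised CPM (UMIs of a gene per 1000000 UMIs, scaled by edgeR's TMM factors) of the summed UMIs, written for mouse 1 and then mouse 2. Because 1 UMI stands for 1 captured 3′ end, they are not divided by gene length, and fold changes are log2 of spinous over the other group. Against basal-type KCs 3023 genes were called, 29.4% of those tested, with 1479 higher in spinous (14.4%) and 1544 lower (15%). Against granular KCs 1933 were called (18.8%), 726 higher (7.06%) and 1207 lower (11.7%). Against the 22 transitional cells 81 were called (0.788%), 55 higher (0.535%) and 26 lower (0.253%), and with the mouse as a paired term, which takes out differences between the 2 animals, the count was 155. The spinous sums are shared by all 3 comparisons. With DESeq2's size factors in place of TMM the median log2 fold change of all genes moved from 0.17 to 0.02 against transitional, from 0.07 to -0.11 against granular and from 0.10 to -0.06 against basal-type cells. The higher share of the calls went from 67.9% to 46.8% against transitional, from 37.6% to 23.5% against granular and from 48.9% to 40.7% against basal-type cells. With the gate genes kept in the counts it was 50% against transitional cells.

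Klf4 stood at 1376 and 1371 CPM in spinous KCs, at 682 and 1002 in transitional, 1800 and 1686 in granular and 312 and 263 in basal-type cells. Its spinous values lay above those of basal-type and transitional cells and below those of granular cells. It was called higher than in basal-type cells (2.26, SE 0.17, adjusted p = 1.16e-07 by edgeR's quasi-likelihood test) and in neither other comparison. Calm4 stood at 8599 and 7342 CPM in spinous KCs, at 2732 and 3847 in transitional, 19136 and 19582 in granular and 392 and 417 in basal-type cells. The 4 groups did not overlap, in the order basal-type, transitional, spinous, granular. Its log2 fold change was 1.27 against transitional (SE 0.17, adjusted p = 0.00436), -1.28 against granular (SE 0.17, adjusted p = 8.2e-05) and 4.30 against basal-type cells (SE 0.19, adjusted p = 6.69e-10), all by edgeR's quasi-likelihood test. Sbsn followed the same order without overlap. It stood at 1426 and 1268 CPM in spinous KCs against 334 and 638, 8465 and 6834, and 116 and 117 in transitional, granular and basal-type cells, with log2 fold changes of 1.45, -2.51 and 3.53, all called. Without mouse 2 the first of these was 2.09.

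**Figure D3:**
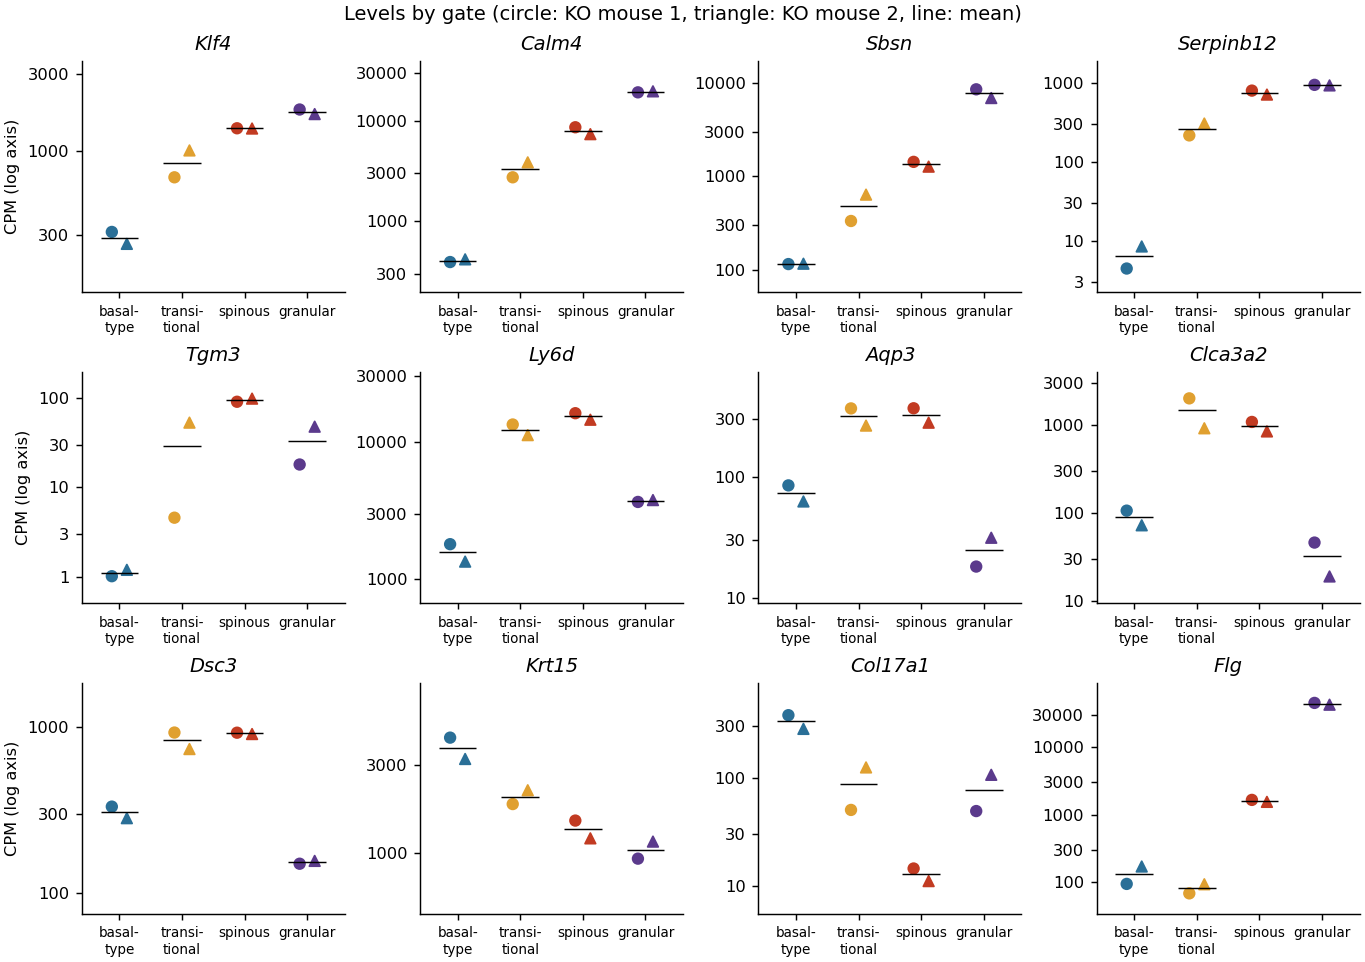
Normalised CPM (log axis) of 12 genes in the 4 groups, with circles for KO mouse 1, triangles for KO mouse 2 and a line at the mean. Calm4, Sbsn and Flg were highest in granular cells, Ly6d, Aqp3, Clca3a2 and Dsc3 were higher in spinous than in granular and basal-type cells, and Krt15 and Col17a1 were highest in basal-type cells.

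A set of genes was higher in spinous KCs than in both granular and basal-type cells. Tgm3, which encodes a protein-crosslinking transglutaminase, stood at 91.6 and 99.3 CPM in spinous KCs, at 18.1 and 48.1 in granular and at 1.01 and 1.19 in basal-type cells. Spinous values lay above all of these. It was called higher against granular (1.51, SE 0.38, adjusted p = 0.00944) and basal-type cells (6.41, SE 0.26, adjusted p = 3.51e-10) by edgeR's quasi-likelihood test. Without mouse 2 the change against granular cells was 2.33. Its transitional values were 4.58 and 53.4 CPM, which was not called, but was with the mouse as a paired term (1.57, adjusted p = 0.0138 in edgeR) and against the cells of 1 to 4% Krt1 and Krt10 (4.92). Among spinous cells thinned to 3000 UMIs, 15.9% in mouse 1 and 17.8% in mouse 2 held a Tgm3 UMI (53.3% and 55.6% unthinned), against 0.494% and 0.333% of melanocytes. The UMIs were spread over 88 and 99 spinous cells.

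Ly6d, a surface protein of stratified epithelia anchored by a lipid, stood at 16133 and 14463 CPM in spinous KCs, 3651 and 3767 in granular and 1800 and 1344 in basal-type cells. The groups did not overlap and both changes were called (2.04 and 3.28). The desmosomal cadherin Dsc3 stood at 922 and 905 CPM in spinous KCs, 150 and 156 in granular and 331 and 282 in basal-type cells, again called in both comparisons (2.58 and 1.58). For Ly6d and Dsc3, spinous and transitional cells were not called apart.

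Against granular KCs, the genes with the largest called increases and at least 50 CPM in spinous KCs were Clca3a2, Chchd10, Aqp3, Mgst1, Cwh43, Mmp2, Gadl1, Ckmt1, Parp10 and Gpt. Clca3a2, of a family of chloride channel regulators, stood at 1083 and 846 CPM in spinous KCs against 46.5 and 19.2 in granular cells (log2 fold change 4.89, SE 0.44, adjusted p = 2.09e-06 by edgeR's quasi-likelihood test). None of the 10 was called against transitional cells by edgeR or DESeq2, and 2 had an unadjusted p under 0.05 in edgeR. For Clca3a2 the lowest spinous value was far above the highest granular one. Aqp3, the water and glycerol channel of the epidermis, stood at 367 and 279 CPM against 18.1 and 31.3 (3.70). Both mitochondrial genes of this group, Chchd10 (64.7 and 62.3 against 2.59 and 4.81 CPM, 4.08) and the creatine kinase Ckmt1 (323 and 268 against 25.9 and 52.9 CPM, 2.89), are encoded in the nucleus. The 11 mitochondrially encoded genes of the list were not called in any of the 3 comparisons by edgeR or DESeq2 (median log2 fold change 0.55 against granular cells, beside 0.07 over all genes), while 2, 10 and 9 of them had an unadjusted edgeR p under 0.05 against transitional, granular and basal-type cells. Their level was limited in advance by the 10% mitochondrial limit, so these values are a description of the kept cells. Clca3a2, Aqp3, Chchd10 and Ckmt1 were also called higher than in basal-type cells, with log2 fold changes of 3.42 for Clca3a2, 2.14 for Aqp3, 1.99 for Chchd10 and 1.46 for Ckmt1. The call of Ckmt1 was lost when basal-type cells with follicle genes were left out (0.90), and without mouse 2 the changes against granular cells were 4.33 for Aqp3 and 3.64 for Ckmt1.

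Keratins other than those of the limits were low or mixed. Krt15, a keratin of basal KCs, stood at 1498 and 1198 CPM in spinous KCs, 1844 and 2194 in transitional, 928 and 1150 in granular and 4253 and 3251 in basal-type cells. Spinous values lay below all transitional and basal-type values, and the change was called against basal-type cells (-1.48). Krt15 was above the level of 347 and 337 plain CPM in melanocytes, where plain CPM are per 1000000 UMIs without those of the 5 genes of the limits and with no TMM factor. Krt14 and Krt5, which the limits held low, made up 0.0478% and 0.0835%, and 0.0197% and 0.0318%, of the summed spinous UMIs. Krt16, a keratin of hyperproliferative and follicular epithelium, stood at 432 and 414 CPM in spinous KCs against 75 and 108 in granular and 10.4 and 18.7 in basal-type cells. The groups did not overlap, and both changes were called (2.20 and 4.85). Its transitional values of 2032 and 1900 CPM were called higher than the spinous ones (-2.21), but 1 of 13 transitional cells of mouse 2 held 84.5% of that gene's UMIs there and 1 of 9 of mouse 1 held 49.3%. In spinous cells the UMIs of Krt16 were spread over 87 and 100 cells. Krt78 (38.6 and 47.3 CPM), a late suprabasal keratin, was called higher than in basal-type cells (3.94) and lower than in granular cells (-3.85), and Krt2 had no UMI in the spinous cells.

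Secreted and surface proteins of suprabasal KCs, 9 of which were tested, were all called higher than in basal-type cells (median log2 fold change 3.02, beside 0.10 over all genes tested). Against granular cells 2 were called higher (Lgals3 and Ly6d) and 3 lower (Lypd5, Sbsn and Slurp1), and against transitional cells 2 were called higher (Lypd3 and Sbsn). Over all genes 7.06% were called higher and 11.7% lower than in granular cells, and 0.535% higher than in transitional cells. Lgals7, or galectin-7, stood at 15701 and 15896 CPM in spinous KCs and at 5216 and 5190 in basal-type cells (1.60). Krtdap, a secreted peptide of differentiating KCs, stood at 9069 and 10665 CPM against 1037 and 1398 (3.02). For both genes the groups did not overlap. Slurp1 stood at 3.4 and 3.09 CPM in spinous and at 321 and 127 in granular cells, called lower (-6.10, or -5.30 without mouse 1). With the genes of the limits left out, the highest levels in spinous KCs included those of Lgals7, Ly6d, mitochondrial transcripts, Malat1, the stefin Stfa3 (9045 and 9520 plain CPM), Krtdap and the fatty acid carrier Fabp5 (7887 and 8729). Stefins, Sprr2 and Lce genes, Krt6a and Krt6b, and Dsg1a and Dsg1b have close paralogs, so their reads may be split between copies, which was not tested.

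Most desmosome genes were higher in spinous than in basal-type cells. Of 11 tested, 8 were called higher and 2 lower, beside 14.4% and 15% of all genes (median log2 fold change 1.81, beside 0.10 over all genes). The desmosomal cadherins differed among themselves. Dsg1a stood at 709 and 666 CPM in spinous KCs and at 60.9 and 42.1 in basal-type cells (3.74), and Dsc1 at 243 and 262 against 11.7 and 10.2 (4.53). Dsg2 was called lower, with 5.39 and 6.43 CPM against 44.7 and 42.7 (-2.88), and so was Dsg3, with 5.96 and 7.98 against 20.9 and 19.6 (-1.53). Within each of these 4 genes the spinous and basal-type values did not overlap. The cytoplasmic partners Dsp (desmoplakin, 2636 and 2681 CPM against 850 and 739) and Jup (plakoglobin, 915 and 979 against 203 and 174) were called higher by 1.74 and 2.33. Against granular cells only Dsc3 was called higher and Dsg2 lower, and against transitional cells only Dsc1 was called higher (1.62). Over all genes 7.06% were called higher and 11.7% lower than in granular cells, and 0.535% higher than in transitional cells. On 11 genes the counts against granular cells are near the background and are no result about the list.

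Gap junction genes followed 2 patterns. Gja1, or connexin 43, stood at 339 and 328 CPM in spinous KCs, 77.6 and 111 in granular and 146 and 135 in basal-type cells, called higher than both (1.82 and 1.24). Transitional cells, at 352 and 334 CPM, were not called apart from the spinous cells. Gjb5 stood at 80.9 and 73.1 CPM in spinous KCs and at 2.69 and 3.67 in basal-type cells (4.56). Gjb2 and Gjb6 were called lower in spinous than in granular cells (-1.52 and -2.83). Gjb6 had no UMI in transitional cells. Of 13 tight and adherens junction genes, 5 were called higher than in basal-type cells and 5 lower than in granular cells. Over all genes these shares were 14.4% and 11.7%. None of the 13 was called against transitional cells. Cldn4 and Cgn were in both lists: Cldn4, a claudin, stood at 20.1 and 18.8 CPM in spinous, 186 and 185 in granular and 6.13 and 3.62 in basal-type cells. P-cadherin (Cdh3) was called lower than in basal-type cells (-2.18).

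Hemidesmosome and basement membrane genes were low. Of 12 tested, 11 were called lower than in basal-type cells, all but Plec (median -2.86), 6 lower than in granular cells and 3 lower than in transitional cells (6 with the mouse as a paired term). Over all genes 15%, 11.7% and 0.253% were called lower than in these groups. Col17a1, the transmembrane collagen of hemidesmosomes, stood at 14.5 and 11.1 CPM in spinous KCs, 50.3 and 124 in transitional, 49.1 and 106 in granular and 376 and 281 in basal-type cells. Its spinous values lay below all others, and all 3 changes were called (-2.85, -2.62 and -4.69). The first ran from -1.79 without mouse 2 to -3.46 without mouse 1, and the second from -1.75 to -3.24. Integrin beta 4 (Itgb4) stood at 6.53 and 8.23 CPM in spinous KCs against 23.3 and 33.7 in granular and 129 and 118 in basal-type cells (-1.95 and -4.06). Laminin beta 3 (Lamb3) was called lower against the same groups, by 2.64 and 4.55 on the log2 scale. The granular cells, which come after the spinous layer, thus held these basal genes at a higher CPM than the spinous cells did. The granular sums also held more Krt14 and Krt5 (0.139% and 0.265%, and 0.0779% and 0.123%), and the part of free RNA or of mixed barcodes in this was not tested.

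Of 17 tested genes in the list of differentiation transcription factors, which includes the p63-regulated gene Tprg, 11 were called higher in spinous than in basal-type cells and none lower (median 1.93). Grhl1, a grainyhead-like factor, stood at 130 and 124 CPM in spinous KCs and 22.9 and 13.4 in basal-type cells (2.82). Zfp750 stood at 132 and 156 CPM against 16.4 and 13.1 (3.29), and Tprg at 66.7 and 55.3 against 1.1 and 1.66 (5.40). Spinous and basal-type values did not overlap for any of these. Against granular cells 6 were called lower. Over all genes 11.7% were, and 14.4% were called higher than in basal-type cells. Prdm1 (Blimp1), a repressor of terminally differentiating KCs, stood at 2.27 and 1.29 CPM in spinous and at 75 and 28.9 in granular cells (-4.86). The nuclear receptor Rora stood at 215 and 181 CPM in spinous, 59.5 and 96.8 in transitional, 902 and 849 in granular and 37.3 and 27.3 in basal-type cells. It was the one gene of this list called in all 3 comparisons (1.30, -2.14 and 2.62). With DESeq2's size factors the first (1.14) was no longer called. Of 12 factors of basal KCs, 7 were called lower than in basal-type cells, beside 15% of all genes. Trp63, the p63 gene on which epidermal stratification depends, stood at 78 and 67.9 CPM against 176 and 145 (-1.14), and Sox4 at 59 and 71.3 against 453 and 438 (-2.77). Id3, Tfap2a, Tfap2b and Tfap2c were not called. Id1, an inhibitor of basic helix-loop-helix factors, was the 1 called higher, at 65.8 and 54.6 CPM against 29 and 27.5 (1.09), and it was also called higher than in granular cells (1.59). The call against basal-type cells was near the 2-fold limit and was lost in 7 of the alternative settings, DESeq2 among them (0.93).

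Among Notch genes, the receptors Notch2 and Notch3 were called higher and the ligands Dll1 and Jag2 lower than in basal-type cells, while the receptor Notch1 and the ligand Jag1 were not called. The receptor Notch3 stood at 35.2 and 40.7 CPM in spinous KCs and at 3.15 and 2.15 in basal-type cells (3.87, SE 0.28, adjusted p = 6.71e-08 by edgeR's quasi-likelihood test). Notch2 stood at 36 and 34.2 against 10.8 and 8.19 (1.89). The ligand Jag2 stood at 2.27 and 1.54 CPM in spinous KCs and at 42.8 and 39.8 in basal-type cells (-4.44), and Dll1 at 0.284 and 0.257, which is 1 UMI per mouse, against 14.3 and 11. Lfng, a glycosyltransferase that modifies Notch, was at 1.13 and 3.86 against 42.7 and 47.1 (-4.13, or -5.06 without mouse 2). For each of these 5 genes the spinous and basal-type values did not overlap. The target gene Nrarp stood at 169 and 168 CPM in spinous, 80.2 and 62.5 in granular and 43.1 and 41.7 in basal-type cells, called higher than both (1.24 and 1.99), while transitional cells stood at 133 and 204 and were not called. Hes1, another target, was called higher only than in granular cells (106 and 80.5 against 31 and 50.5 CPM, 1.18, or 1.77 without mouse 2), and with no mitochondrial limit this turned to -1.20. In all, 3 of 12 tested Notch genes were called higher and 3 lower than in basal-type cells (median 0.24 beside 0.10 over all genes). Over all genes tested 14.4% were called higher and 15% lower, so on 12 genes these counts are near the background and are no result about the list. Thinned to 3000 UMIs, 9.76% and 11.5% of spinous cells held a Notch3 UMI (47.3% and 55.1% unthinned), beside 0.333% and 0.667% of basal-type cells. No UMI was found in 405 thinned melanocytes of mouse 1 and 600 of mouse 2, which allows a share of up to 0.741% and 0.5%.

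Cell cycle genes were low in the spinous cells. Of 16 tested, 15 were called lower than in basal-type cells, all but Pcna (median -2.37), and 8 lower than in granular cells. Over all genes these shares were 15% and 11.7%. The proliferation marker Mki67 stood at 13.9 and 24.2 CPM against 100 and 105 in basal-type cells (-2.42), and the kinase Cdk1 at 3.69 and 7.21 against 54.8 and 57.1 (-3.34). After thinning, 1.22% of spinous cells in mouse 1 (interval 0.148 to 4.34) and 3.45% in mouse 2 (1.28 to 7.35) held 3 or more UMIs of the list, against 24.8% and 31.8% of basal-type cells. Unthinned shares were 44.8% and 47.2% against 55.6% and 62.3%. Among regulators of the G1 phase, the inhibitors Cdkn1a (p21, 419 and 432 against 83.9 and 71.6 CPM, 2.45) and Cdkn2b (p15, 36.3 and 38.1 against 0.608 and 0.68 CPM, 5.82) were called higher than in basal-type cells. Cdkn1c (p57, 1.99 and 2.06 against 20 and 22.4, -3.38) and the cyclin Ccnd2 (42.6 and 105 against 631 and 717, -3.18, or -3.89 without mouse 2) were called lower. So were the cyclin Ccnd1 and the inhibitor Cdkn2c. Of 9 tested genes of this list, 2 were thus called higher and 4 lower, beside 14.4% and 15% over all genes. Cdkn2b was also called higher than in granular cells (10.3 and 2.41 CPM, 2.58, with 1.80 and 3.90 in the single mice).

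**Figure D4:**
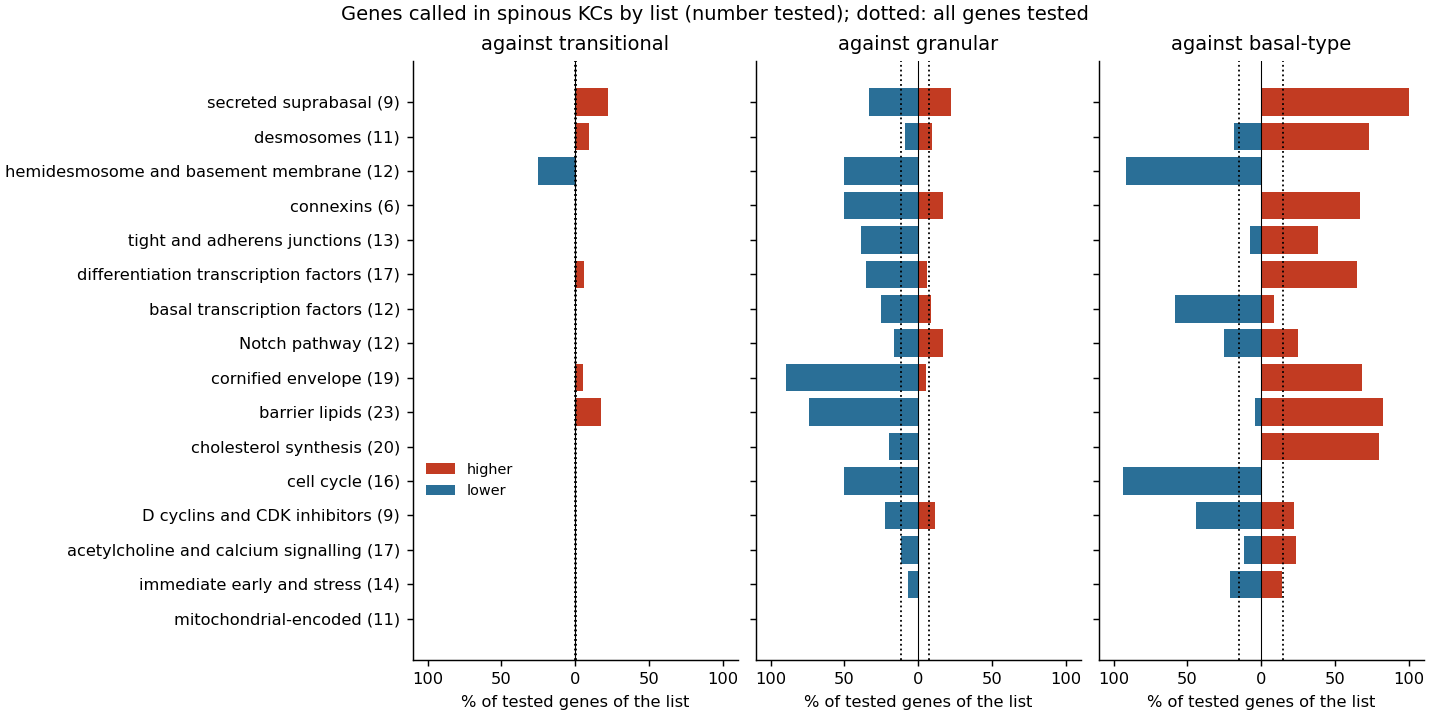
For 16 gene lists (number of genes tested in brackets), the percent called higher (red, right) and lower (blue, left) in spinous KCs against each of the 3 other groups; dotted lines give the percent called over all genes tested. Against basal-type cells 9 of 9 secreted suprabasal genes were higher and 15 of 16 cell cycle genes lower, and against granular cells 17 of 19 cornified envelope genes were lower.

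Barrier lipid genes were already raised in spinous KCs but below the granular level. Of 23 tested, 19 were called higher than in basal-type cells and 1 lower (Cers4), with a median of 2.40, none higher and 17 lower than in granular cells (median -2.09), and 4 higher than in transitional cells. Over all genes 14.4% were called higher than in basal-type cells, 11.7% lower than in granular cells and 0.535% higher than in transitional cells. Elovl4, which elongates the very long fatty acids of barrier ceramides, stood at 669 and 645 CPM in spinous, 261 and 351 in transitional, 1295 and 1056 in granular and 41.2 and 30.7 in basal-type cells. The groups did not overlap, and the changes against transitional (1.09) and basal-type cells (4.19) were called, the first only at the 2-fold limit (0.94 by DESeq2, not called). Elovl1, another elongase, stood at 169 and 165 CPM in spinous against 1800 and 1450 in granular cells (-3.28). The lipoxygenase Alox12b stood at 13.1 and 11.6 CPM in spinous and at 212 and 207 in granular cells (-4.09). The ceramidase Acer1 differed from these, with 138 and 115 CPM in spinous against 132 and 178 in granular cells, not called, and 3.12 and 4.19 in basal-type cells (5.08). Of 20 cholesterol synthesis genes, 16 were called higher than in basal-type cells (median 1.76) and 4 lower than in granular cells. Beside 14.4% and 11.7% over all genes, the count against granular cells is near the background. None of the 20 was called against transitional cells. Mvk, or mevalonate kinase, stood at 190 and 179 CPM against 33.7 and 34.3 in basal-type cells (2.44), and Sqle, or squalene epoxidase, at 83.4 and 106 against 15.7 and 20.9 (2.37).

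Cornified envelope genes marked the upper edge of the spinous group. Of 19 tested, 17 were called lower than in granular cells (median -5.34), 1 higher (Tgm3) and 1 not called (Evpl), and 13 were called higher than in basal-type cells (median 2.63). Over all genes 11.7% were called lower than in granular cells and 14.4% higher than in basal-type cells. Flg, or profilaggrin, stood at 1647 and 1540 CPM in spinous, 68.6 and 93.5 in transitional, 44574 and 41943 in granular and 94.6 and 171 in basal-type cells. Its spinous values lay between the granular values and all others, and it was called in all 3 comparisons (4.27, -4.76 and 3.59). Flg in melanocytes was 120 and 261 plain CPM. After thinning, 32.9% and 36.8% of spinous cells held a Flg UMI, against 31.9% and 46.8% of melanocytes, so by share of cells Flg was at background. Most of the spinous Flg UMIs lay in the 13 cells of each mouse with 0.05 to 0.5% Lor, so the fold changes of Flg describe few cells. The 3 genes lowest against granular cells, Sprr2b, Sprr2e and 2210017I01Rik, had no UMI in the spinous cells. In granular cells they stood at 5.17 and 1085, 7.76 and 152, and 25.9 and 77 CPM, so that mouse 2 held most of each. Of the Sprr2b UMIs of granular mouse 2, 85.4% came from 1 cell. The interleukin Il18 stood at 1.13 and 0 CPM in spinous against 173 and 308 in granular cells, and Crct1, a cysteine-rich envelope gene, at 25.5 and 11.3 against 5701 and 9872.

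Against basal-type KCs the genes with the largest called increases were Serpinb12, Sprr1b, Serpinb3b, Tdh, Them5, Tgm3, Oas1f, Gsta1, Ankrd35 and Stfa2. Serpinb12, a serine protease inhibitor, stood at 794 and 707 CPM in spinous KCs, 215 and 304 in transitional, 939 and 924 in granular and 4.43 and 8.43 in basal-type cells. It was called higher than in basal-type (6.84, or 7.44 without mouse 2, SE 0.28, adjusted p = 3.3e-10) and transitional cells (1.51, adjusted p = 0.0136) by edgeR's quasi-likelihood test, and granular values lay above the spinous ones without a call. Tdh, or threonine dehydrogenase, stood at 219 and 201 CPM in spinous KCs, 33.6 and 28.9 in granular and 1.65 and 2.81 in basal-type cells, called higher than both (2.75 and 6.50), while transitional cells stood at 91.5 and 127 and were not called. Gadl1, a decarboxylase of the list against granular cells, had a like course, at 145 and 134, 25.9 and 12, and 3.33 and 3.62 CPM (2.89 and 5.31). The genes lowest against basal-type cells were Ackr4, Wnt10a, Sparc, Col17a1, Fst, Lamb3, Ctnnal1, Ppp1r14a, Lmo1 and Itgb4. Ackr4, a scavenging chemokine receptor, stood at 2.55 and 3.09 CPM against 128 and 86.7 (-5.23), and the ligand Wnt10a at 1.7 and 2.32 against 64.2 and 67.4 (-5.02). Sparc and Fst, both secreted, were lower in spinous KCs than in all 3 other groups and were called each time (Sparc 9.93 and 12.6 CPM, Fst 15 and 11.3 CPM). Without mouse 2 the changes of Fst were -0.86 against transitional and -1.26 against granular cells, beside -2.64 and -2.46 with both mice.

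The comparison with transitional cells rests on 22 cells. The largest called increases were Flg, Klk7, Dkkl1, Dapl1, Skint9, Spink5, Tubb2a, Asprv1, Ly6g6c and Clic3. The protease inhibitor Spink5 stood at 282 and 194 CPM in spinous KCs against 36.6 and 50.1 in transitional cells (2.43, SE 0.33, adjusted p = 0.00436), and the envelope protease Asprv1 at 467 and 346 against 68.6 and 100 (2.24, SE 0.26, adjusted p = 0.0015), both by edgeR's quasi-likelihood test. Spinous and transitional values did not overlap for either. The largest called decreases were Krt75, Krt6b, Sparc, Ifitm3, Col17a1, Fst, S100a6, Krt16, H19 and Tgfbi. The imprinted RNA H19 stood at 84.3 and 116 CPM against 352 and 441 (-1.99), and Tgfbi, a secreted matrix protein, at 33.8 and 31.1 against 128 and 120 (-1.93). In mouse 2, 1 transitional cell held all 264 Krt6b UMIs of the group and 1 cell held 36 of its 37 Krt75 UMIs. With the 314 cells of 1 to 4% Krt1 and Krt10 in place of the 22, an alternative added after seeing the data, 991 genes were called (9.14%), 560 higher in spinous (5.17%) and 431 lower (3.98%), and Krt75, Krt6b, Krt16 and Klk7 were no longer called. Without mouse 2 the increases of Skint9, Tubb2a, Ly6g6c, Clic3 and Dapl1 were over 1.5 times larger. Without mouse 1 those of Dapl1 (2.82 to 2.09), Skint9 (2.57 to 1.65), Tubb2a (2.42 to 1.57) and Ly6g6c (2.21 to 1.45) were over 1.5 times smaller, and Skint9 had no transitional UMI in mouse 1. With a mitochondrial limit of 5% the count was 3.

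Calcium-binding proteins changed one by one. Of 12 tested, 7 were called higher and 2 lower than in basal-type cells. Beside 14.4% and 15% over all genes, the count of lower calls is near the background. S100a11 stood at 2459 and 2282 CPM in spinous, 367 and 587 in granular and 933 and 856 in basal-type cells, called higher than both (2.31 and 1.41), while transitional cells stood at 1954 and 2104 and were not called. Calm3, a calmodulin gene, stood at 81.1 and 78.7 CPM in spinous, 20.7 and 31.3 in granular and 33.2 and 38.9 in basal-type cells (1.61 and 1.15). Calm2, which encodes the same protein, did not follow it, with 153 and 149 CPM in spinous against 295 and 392 in granular (-1.19) and, not called, 284 and 313 in basal-type cells. Of the acetylcholine and calcium signalling list, to which the deleted receptor belongs, 17 of 33 genes were abundant enough to be tested. The channel Trpv3 (2.54, or 1.79 without mouse 2), the store sensor Stim1 (1.06), the calcium release channel Itpr2 (1.47) and the phospholipase Plcd1 (1.92) were called higher than in basal-type cells, and the kinase Prkca (-2.99) and the G protein Gnaq (32.9 and 35 against 69.9 and 66.4 CPM) lower. Stim1 stood at 79.2 and 75.1 CPM against 39.6 and 34.5, and its call and that of Calm3 against basal-type cells were lost by DESeq2 (0.90 and 0.99). None of the 17 was called against transitional cells by edgeR or DESeq2 (1 had an unadjusted edgeR p under 0.05), and 2, Prkch and Trpv4, were called lower than in granular cells. Beside 0.788% of all genes called against transitional cells, 11.7% lower than in granular cells, and 14.4% higher and 15% lower than in basal-type cells, the counts of this list are near the background. Chrm2, Chrm4, Chrm5, Chrna3, Chrna7, Chrna9, Chrna10, Chat and Casr had no UMI in the spinous cells. Of 14 immediate early and stress genes, 2 were called higher than in basal-type cells and 3 lower (Atf3, Hsp90aa1 and Ier3), which is near the 14.4% and 15% over all genes and no result about the list. The heat shock genes Hspa1a (88 and 91.1 against 23.6 and 19 CPM) and Hspa1b were the higher ones (2.08 and 2.04), whereas the heat shock gene Hsp90aa1 stood at 175 and 169 against 344 and 382 CPM. Fos was not called (769 and 624 against 785 and 444 CPM).

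Inside the spinous gate the cells were not alike. Levels within the gate are plain CPM, over the UMIs of all genes but the 5 of the limits, and are given without a test. In the 26 cells with 0.05 to 0.5% Lor, Flg stood at 9793 and 9730 CPM, against 428 and 382 in the 317 cells below 0.05%. Those 13 cells in each mouse held 4310 and 4557 Flg UMIs, and the other 152 and 165 cells held 1495 and 1427. Sbsn (3286 and 2265 against 1025 and 1036) and Calm4 (12779 and 11391 against 7069 and 6212) were also higher in the cells with more Lor. Ly6d (10914 and 9754 against 14909 and 13828) was lower there, as it was in granular cells. The median depth of the 26 cells was 30447 and 27387 UMIs, against 21269 and 20655.

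At the other edge, 10 cells of mouse 1 and 21 of mouse 2 had 0.4 to 0.8% Krt14 and Krt5. In them Krt15 stood at 2964 and 2666 CPM, against 1191 and 865 in the cells under 0.2%. Elovl4 stood at 268 and 308 CPM, against 619 and 639, and Dsc1 at 84.5 and 79.8, against 226 and 264. In both mice Elovl4 (477 and 486) and Dsc1 (164 and 205) took middle values in the cells between 0.2 and 0.4%. Tgm3 had 0 and 27.5 CPM in the uppermost cells, against 86.1 and 105 in those under 0.2%. The median depth was lower there, 12598 and 16692 UMIs against 22808 and 22258.

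**Figure D5:**
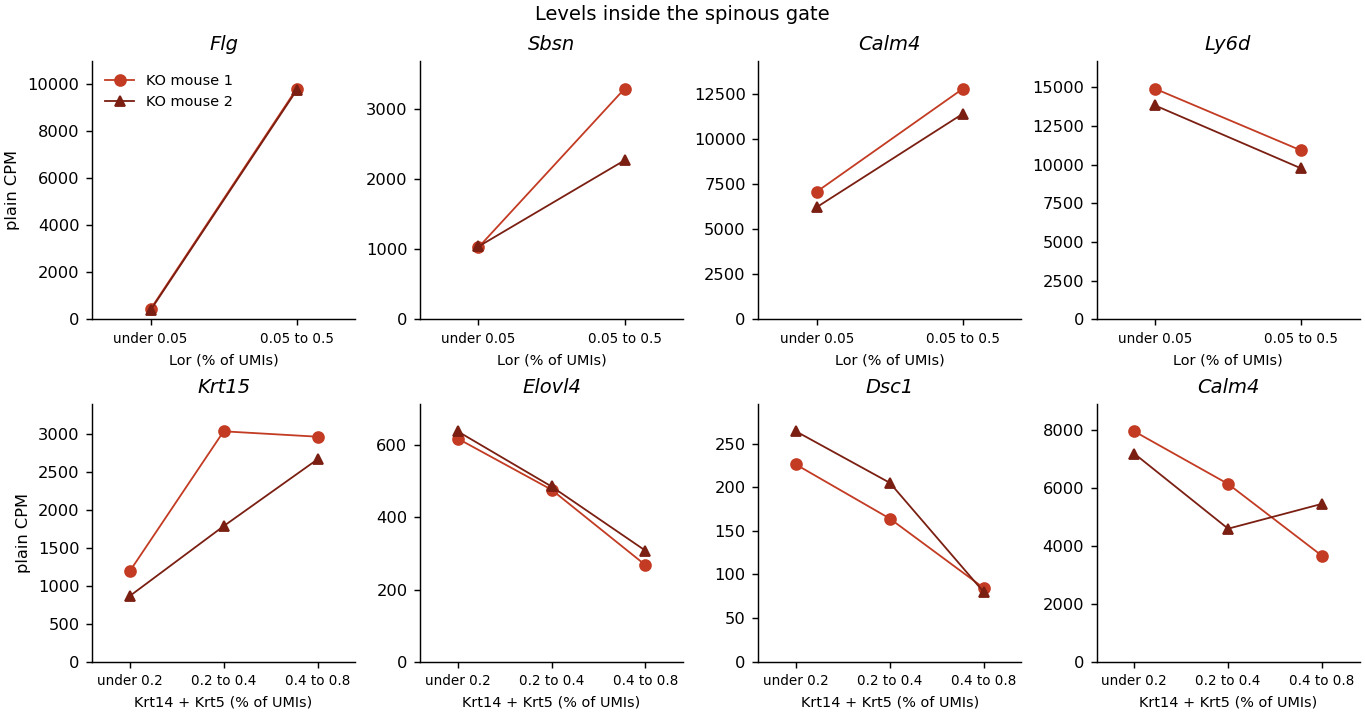
Plain CPM of summed UMIs in spinous cells (vertical axis) by the cell's share of Lor (top row) or of Krt14 and Krt5 (bottom row), for KO mouse 1 (circles) and KO mouse 2 (triangles). In both mice Flg, Sbsn and Calm4 were higher and Ly6d lower in the cells with more Lor, and Elovl4 and Dsc1 were lower and Krt15 higher in the cells with more Krt14 and Krt5.

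Across spinous cells, the share of Krt1 and Krt10 ranked with other suprabasal genes. Among 616 genes of at least 200 CPM, ranked by the weaker of the 2 mice, Spearman's rho with that share was highest for Serpinb12 (0.59 over 165 cells of mouse 1 and 0.64 over 178 of mouse 2), Cst6 (0.56 and 0.66), Fam25c (0.56 and 0.63) and Dsc1 (0.55 and 0.58). It was lowest for Krt15 (-0.54 and -0.57), followed by Rps14 (-0.54 and -0.46) and Eef1a1 (-0.46 and -0.61), a ribosomal protein and a translation factor. Cells of 1 mouse share a library, and some of these genes also ranked with the cell's depth (rho with depth 0.45 and 0.55 for Serpinb12 and -0.46 and -0.19 for Krt15, but -0.14 and -0.05 for Rps14 and -0.06 and -0.15 for Eef1a1), so the values are descriptions.

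The 2 mice gave nearly the same spinous profile. Of 2717 genes with at least 50 plain CPM in 1 mouse, 7 differed over 2-fold, and the median absolute log2 ratio was 0.10. Sprr1b (72.7 against 23.6 CPM) and Atf3 (70.7 against 26.2) were higher in mouse 1. Ccer2 (1.02 against 55), Dcn (27.5 against 84.5), Krt79 (142 against 413), Ccnd2 (38.2 against 97.1) and Penk (24.4 against 60.4) were higher in mouse 2. For Ccer2, 224 of 231 UMIs of mouse 2 lay in 1 cell, whereas the Ccnd2 UMIs were spread over 48 and 84 cells.

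Markers of several other cell types were near 0 in the spinous sums, while follicle and sebaceous lists were not. The 4 T cell markers with a row had no UMI, and Cd207, the defining gene of mature Langerhans cells, had none. Melanocyte markers summed to 22.1 and 109 plain CPM, against 42 and 59.4 in basal-type cells. Of 3 tested, Mlana was called higher than in basal-type cells (4.54 and 17.5 against 4.02 and 6.53 normalised CPM). Dct took 7.88 and 45.2 of the sums, and 1 cell in each mouse held 77.4% and 73.7% of the Dct UMIs. Langerhans markers summed to 29.8 and 2.38 CPM, with 94.4% of the Tyrobp UMIs of mouse 1 in 1 cell. Inner root sheath markers summed to 72.5 and 155 CPM, led by Tchh (39.9 and 60.4), against 55.2 and 72.6 in basal-type cells. Of the 6 inner root sheath markers tested, 3 were called higher than in basal-type cells, Krt27 (5.39 and 11.1 against 2.17 and 4.3 normalised CPM), Krt28 (16.7 and 48.6 against 4.95 and 10.7) and Krt73 (1.13 and 25 against 1.01 and 2.21). The Krt73 change rested on mouse 2, where 1 cell held 46.4% of its UMIs. Hair follicle markers summed to 516 and 540 CPM, mostly Krt17 (422 and 452), against 3057 and 2436 in basal-type cells. Sebaceous markers summed to 256 and 221 CPM, above the 163 and 120 of basal-type cells, led by Mgst1 (175 and 147), which is among the largest increases against granular cells. Upper follicle markers summed to 621 and 795 CPM, with Cst6 at 465 and 370, against 1902 and 695 in basal-type cells. The upper follicle marker Krt79 stood at 142 and 413 CPM, and after thinning 12.2% and 15.5% of spinous cells held a UMI of it, against 9.38% and 12.7% of melanocytes. Dermal, endothelial, red cell and Merkel cell markers summed to at most 3.09 CPM in either mouse. The part of these few cells in the results above was not tested, other than by leaving out the called doublets.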

How the data were processed

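Single-cell 3′ RNA libraries were made from the epidermis of 2 Chrm3 KO mice. Newborn skin was kept overnight in enzyme to separate the epidermis, dead cells were removed, and cells were captured in droplets and sequenced on a NovaSeq instrument (the kit version differs between the sources used here). According to the submitters' processing notes the reads were processed with Cell Ranger 3.0.2 on mm10. The deposited values are raw UMI counts per gene and barcode, with no normalisation by the authors (27998 genes; 10816 and 15867 barcodes; 109756784 and 166441732 UMIs). The members and gene lists used here were chosen with earlier results of these data known.

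Barcodes were kept with 900 to 7700 genes and under 10% mitochondrial UMIs, which left 7607 and 11881 cells. Doublets were scored with Scrublet (expected rate 0.08, scanpy 1.11.5) and left in. UMIs were summed per mouse and group, the 5 gate genes were removed, and low genes were filtered with filterByExpr. The 8 sums were fitted in edgeR 4.0.16 (R 4.3.3) with TMM factors and 1 mean per group, with p-values adjusted after Benjamini and Hochberg; DESeq2 1.42.0 was an alternative. The spinous sums held 3920677 and 4189946 UMIs, and the transitional sums 194830 and 291534, the least precise. The fit left 4 residual degrees of freedom. Each mouse gave a sum to every group, and the deviations of sums of the same mouse correlated at 0.01 to 0.23. Data were also simulated from 1 pooled mean per gene, with no other differences between groups. Of 200 genes changed 4-fold, 98.5% were recovered against basal-type, 78.5% against granular and 60% against transitional cells. Most of the pooled UMIs are of basal-type cells, so these rates need not hold for genes that are low there.

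Named genes are the label's markers, for each comparison the 10 largest called changes each way with the same sign in both mice and at least 50 CPM in the higher group, the 15 highest levels in spinous cells, examples from the gene lists, and genes over 2-fold apart between the mice. Shares of cells with a UMI were compared after thinning to 3000 UMIs, over at most 600 cells per group and mouse, leaving out 1 and 4 shallow spinous cells. Intervals and floors (3 counts) cover counting error only. The p-values rest on the spread between the sums of these 2 mice within groups, pooled over the 8 sums and shared across genes. In the small groups that spread includes the sampling of few cells. Gene positions are from GENCODE M21 (GRCm38). Some genes are not reported here.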

Additional observations from a re-analysis of the deposited data

Results flagged for a closer look

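Of the 995 barcodes with spinous keratin shares, 652 carried a signal outside the cells that were compared, since the limits on genes and mitochondrial UMIs removed them. They had a median of 34.9% mitochondrial UMIs, 36% in mouse 1 and 34% in mouse 2. Of these barcodes 54 had under 900 genes and 2 had over 7700. When the mitochondrial limit was lifted for all groups, an alternative chosen after seeing the data, 939 barcodes met the spinous limits. In that setting 70 of the 81 calls against transitional cells, 1644 of 1933 against granular cells and 2649 of 3023 against basal-type cells remained. Whether the removed barcodes are damaged cells was not tested.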

How the results depend on the processing

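The spinous share of cells (mean 1.83%) was 1.1% with a 5% mitochondrial limit, 0.923% with tighter keratin and Lor limits and 4.03% with no mitochondrial limit, and 1.5 to 2.17% in the single mice. Against transitional cells the 81 called genes became 130 with DESeq2, 215 with no filter on low counts, 191 with the tighter limits, 168 with no mitochondrial limit, 991 with the cells of 1 to 4% Krt1 and Krt10, and 3 under the 5% limit, which leaves fewer cells. With a replicate block (the mouse as a paired term) it was 155, which included all 81, and the block changed no other count of all called genes by over 1.5 times and ended none of the named calls. Under the 5% limit 1027 genes were called against granular and 1896 against basal-type cells. The 2 settings without a mitochondrial limit and with the wider transitional cells were chosen after seeing the data. Counts of called genes could not be had from 1 mouse, which leaves no residual degrees of freedom.

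Of 152 named fold changes under all settings, 1670 values kept their direction and their side of the threshold or moved by less than the spread between mice, 65 lost their call, 32 moved by more than that spread in 1 mouse, and 1 reversed, Hes1 against granular cells with no mitochondrial limit (-1.20). The single-mouse part of the 1670 could hardly come out otherwise. With 2 mice the SD between them exceeds the distance of either from their mean. The naming rule also asked for the same sign in both mice. Of the lost calls, 24 were against transitional cells under the 5% limit. The causes were not tested. Leaving out 1 mouse moved 10 of 26 named folds against transitional, 19 of 49 against granular and 7 of 77 against basal-type cells by over 1.5 times. Depth limits the transitional comparison most, with 22 cells and 60% of 4-fold changes recovered in the simulation from pooled means. A gene not called there is thus not shown to be equal.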
